A study of Mus musculus with 32 samples.

Results

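The comparison set irradiated embryonic fibroblasts that carry an Oct-1 mutation against irradiated wild type fibroblasts. Its members were chosen by title: titles beginning MUR were irradiated Oct-1 mutant cells and titles beginning WTR were irradiated wild type cells. They came to 16 of the 32 arrays of the series, made from 8 of its 16 extracts. Each group had 4 replicates, and each extract was read on array A and on array B, which carry different probe sets. All samples were described as early passage primary mouse embryonic fibroblasts, which are connective tissue cells grown out of whole embryos. The unirradiated Oct-1 mutant and unirradiated wild type cells, with 4 replicates each, served as the background for the same genotype contrast. No source used here gives the mutant allele, the strain, the embryo's age, the radiation dose or the time of harvest. Nothing said whether replicates came from separate embryos, so p-values measure the spread between these extracts, which may be technical. The title numbers fell into 2 runs, with replicates 1 and 2 of every group in the first and replicates 3 and 4 in the second. The run was kept as a block in the main fits, and fits without it are given beside them.

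Oct-1, the product of Pou2f1, is a widely expressed POU domain transcription factor that binds the octamer sequence ATGCAAAT. It takes part in transcription of small nuclear RNA genes through the SNAP complex and of histone H2B genes through the S phase coactivator OCA-S, and it has also been linked to the response of cells to oxidative and genotoxic stress. Ionizing radiation breaks DNA, activates the ATM kinase and p53, and stops fibroblasts in the cell cycle, so that transcripts of p53 targets rise and those of mitotic genes fall. Pou2f1 itself had no probe set under its name on either array, so the mutation could not be checked on the targeted gene. The values are deposited expression values of probe sets, taken as log2 from their range because no source used here states the log base, and no detection call came with them. Levels of different probe sets are not compared here, because nothing puts them on a common scale.

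The 4 mutant and the 4 wild type extracts also differed in sex-linked expression. On array A the irradiated mutant extracts read between 3.16 and 3.29 on one probe set of Xist, the X inactivation RNA, and the irradiated wild type extracts between 8.19 and 9.55. Eif2s3y, a gene of the Y chromosome, read between 8.46 and 9.32 in the irradiated mutant extracts and between 3.25 and 4.02 in the irradiated wild type extracts. The unirradiated extracts split the same way, so genotype and the sex of the embryos cannot be told apart in any comparison here. On array A 57 of 398 tested X-linked probe sets were called (14.3%), against 10.2% of autosomal ones. The genes named below and the called members of gene lists are autosomal. Counts over all tested probe sets also take in sex-linked ones and those without a single gene, unless they are said to be autosomal. Of the 1405 calls on array A given below, 57 were X-linked, 1 was Y-linked and 111 had no single gene. Of the 216 on array B, 13 were X-linked and 21 had no single gene. Correlations between replicates of a group ran from 0.979 to 0.995 on array A and from 0.984 to 0.996 on array B, and the 3' to 5' control differences for Gapdh and beta-actin overlapped between the genotypes. All 18 fibroblast markers were above the filter level on array A, with summed linear levels of 117183 to 130714 in wild type and 123392 to 157454 in mutant cells. Only 6 of 20 macrophage and blood markers were above that level, and their summed level was 509.8 to 605.4 in wild type and 648.8 to 749.5 in mutant cells.

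In irradiated cells the mutant differed from the wild type at many genes on array A and at fewer on array B. A probe set was called where limma's moderated test gave a Benjamini-Hochberg adjusted p under 0.05 within the array. On array A 1405 of 13576 tested probe sets were called (10.3%), with 862 higher (6.35%) and 543 lower (4.0%) in the mutant. On array B 216 of 13507 were called (1.6%), with 99 higher (0.733%) and 117 lower (0.866%). Without the run block the counts were 516 and 49, and all 516 and all 49 were also called with it. On array B the count fell to 126 without mutant replicate 1, 136 without mutant replicate 2, and 108, 123, 109 and 141 without wild type replicates 1, 2, 3 and 4. Centring the arrays on their median changed the array B split to 63 higher and 123 lower, and quantile normalization to 126 higher and 104 lower. The autosomal calls came to 1236 probe sets of 1055 genes on array A, of which 775 were higher, and to 182 probe sets of 172 genes on array B, of which 81 were higher. Most differences were small: the median size of a called autosomal difference was 0.41 on the log2 scale on array A, and 62 higher and 20 lower autosomal probe sets passed 2-fold.

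The largest rises on array A were of an interferon-inducible gene, a peroxiredoxin probe set, a p53-induced phosphatase and several secreted or membrane proteins. Genes chosen for size, on both arrays, had to be called with both mutant replicates beyond both wild type replicates in each run. Their separation within runs therefore follows from the choice. Ifi202b, an interferon-inducible gene of the Ifi200 family, read 8.71, 8.55, 8.16 and 8.17 in the 4 mutant extracts and 3.87, 3.78, 3.76 and 3.73 in the 4 wild type extracts. The wild type values lay under the filter level of 4.97 and close together, and every mutant value was far above them. The difference was 4.61 (SE 0.16, adjusted p = 1.47e-12), 24.5-fold between deposited values, with no detection call to say whether the wild type signal was above background. Ptprv, a receptor-type tyrosine phosphatase that p53 is known to induce in mouse fibroblasts, read 7.97, 8.10, 8.33 and 8.64 in the mutant and 5.06, 4.89, 4.79 and 5.01 in the wild type. The groups were far apart in both runs, with a difference of 3.33 (SE 0.16, adjusted p = 2.57e-10), against 2.08 in unirradiated cells. Ctse, the aspartic protease cathepsin E, read 8.65, 8.43, 6.65 and 7.32 in the mutant and 5.39, 4.89, 3.98 and 3.79 in the wild type. Its level was higher in the first run in both genotypes, and the mutant was above the wild type in each run, by 3.40 and 3.10.

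Igfbp3, a secreted binding protein for insulin-like growth factors, read 8.49, 8.66, 9.14 and 8.98 in the mutant and 6.36, 6.81, 6.39 and 5.84 in the wild type on array A. A separate probe set on array B read 7.40, 7.60, 7.63 and 7.65 in the mutant and 5.86, 5.38, 4.50 and 4.49 in the wild type. Both probe sets kept the groups apart, with differences of 2.47 (SE 0.19, adjusted p = 8.59e-08) and 2.51 (SE 0.23, adjusted p = 4.55e-05). Fxyd6, a regulator of the sodium pump, read 6.56, 6.71, 6.76 and 7.21 in the mutant and 4.29, 4.54, 4.21 and 4.73 in the wild type, a difference of 2.37 (SE 0.19, adjusted p = 1.55e-07). Rdm1, a RAD52 motif protein, read 5.69, 6.28, 6.17 and 6.58 in the mutant and 4.12, 4.33, 4.48 and 4.28 in the wild type, a difference of 1.88 (SE 0.13, adjusted p = 2.6e-08). In each of these genes the lowest mutant value was above the highest wild type value. Trim16, an E3 ubiquitin ligase, rose by 1.73 (SE 0.13, adjusted p = 8.3e-08), with mutant values of 6.24, 6.43, 7.23 and 7.43 and wild type values of 4.40, 4.65, 5.56 and 5.82. Both genotypes read higher in the second run, and the groups did not overlap.

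**Figure D1:**
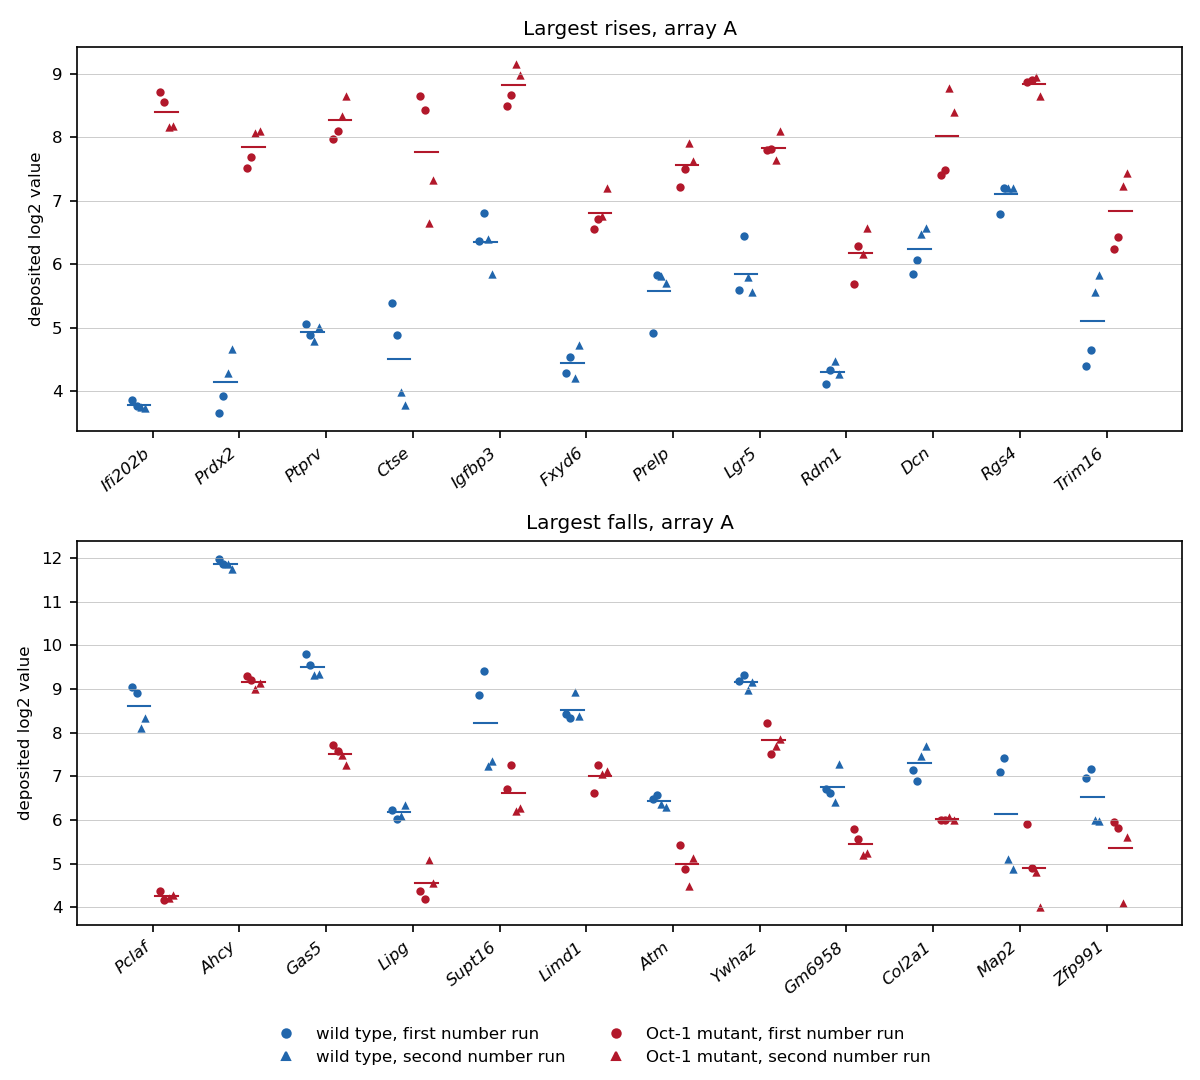
Deposited log2 values in each irradiated extract (y axis) for the 12 autosomal genes with the largest rises (top) and the 12 with the largest falls (bottom) on array A, with blue for wild type, red for Oct-1 mutant, circles and triangles for the first and second number run, and bars for group means of 4 replicates. The Ifi202b values of the mutant lie between 8.16 and 8.71 and those of the wild type between 3.73 and 3.87. Supt16 and Map2 overlap between groups and separate only within a run, which the choice of genes required.

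The largest falls on array A were of Pclaf and Ahcy. Pclaf encodes the PCNA clamp associated factor, and its probe set read 4.37, 4.18, 4.22 and 4.28 in the mutant and 9.06, 8.90, 8.12 and 8.35 in the wild type. The difference was -4.34 (SE 0.17, adjusted p = 7.38e-12), 20.3-fold lower, with mutant values below the filter level. Ahcy, which hydrolyses S-adenosylhomocysteine in the methionine cycle, read 9.29, 9.21, 9.01 and 9.13 in the mutant and 11.99, 11.87, 11.86 and 11.74 in the wild type. No extract lay between the groups, and the difference of -2.70 (SE 0.063, adjusted p = 2.64e-15), 6.51-fold lower, was -2.74 in unirradiated cells. Gas5, a growth arrest associated RNA that hosts small nucleolar RNAs, read 7.72, 7.59, 7.49 and 7.26 in the mutant and 9.79, 9.54, 9.32 and 9.35 in the wild type, a difference of -1.99 (SE 0.11, adjusted p = 9.29e-10). Its other 3 probe sets fell by 1.94, 0.72 and 0.64 on the log2 scale. Supt16, a subunit of the histone chaperone FACT, read 6.72, 7.27, 6.21 and 6.27 in the mutant and 8.87, 9.41, 7.23 and 7.36 in the wild type. Its groups overlapped when the runs were pooled and were apart only within each run, which the choice of genes required. The call was lost without the run block (adjusted p = 0.115).

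Atm, the kinase that signals DNA double strand breaks, read 5.42, 4.89, 4.50 and 5.13 in the mutant and 6.48, 6.58, 6.36 and 6.30 in the wild type on one array A probe set. That difference was -1.44 (SE 0.23, adjusted p = 0.000441), and the array B probe set of Atm gave -0.27 (adjusted p = 0.4). Limd1, a LIM domain scaffold protein, fell by 1.502 (SE 0.14, adjusted p = 1.14e-06), and Lipg, endothelial lipase, fell by 1.62 (SE 0.25, adjusted p = 0.000291). Ywhaz, the 14-3-3 zeta protein, read 8.23, 7.51, 7.70 and 7.86 in the mutant and 9.18, 9.33, 8.98 and 9.16 in the wild type, a difference of -1.34 (SE 0.12, adjusted p = 5.39e-07). Col2a1, the cartilage collagen, read 5.99 to 6.07 in the 4 mutant extracts and 7.16, 6.90, 7.47 and 7.70 in the wild type, a difference of -1.29 (SE 0.12, adjusted p = 6.91e-07). The mutant extracts were close together, and none reached the lowest wild type value. Gm6958 fell by 1.30 (adjusted p = 0.000215) and Zfp991, a zinc finger gene, by 1.16 (adjusted p = 0.00443). Zfp991 was not called without the run block (adjusted p = 0.154).

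On array B the largest falls were of Pank4 and Thg1l. Pank4, of the pantothenate kinase family, read 4.02, 4.13, 4.59 and 3.94 in the mutant and 6.82, 6.68, 7.11 and 6.70 in the wild type, a difference of -2.66 (SE 0.15, adjusted p = 2.94e-07). Thg1l, which modifies the histidine transfer RNA, read 6.73, 5.51, 5.80 and 5.90 in the mutant and 8.45, 7.90, 7.78 and 7.64 in the wild type, a difference of -1.96 (SE 0.23, adjusted p = 0.000468). The groups did not overlap in either gene. Khsrp, an RNA binding protein that promotes decay of AU-rich transcripts, read 6.68, 7.27, 5.47 and 5.13 in the mutant and 8.16, 7.92, 6.87 and 7.58 in the wild type. Its groups overlapped across runs, and the call was lost without the run block (adjusted p up to 0.288 over the settings tried). Shisa4, 2010315B03Rik and Bmpr1b, a BMP receptor, fell by 1.37, 1.31 and 1.30 on the log2 scale. The call of 2010315B03Rik was lost without the run block (adjusted p up to 0.0784 over the settings tried).

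The largest rises on array B after Igfbp3 were of Igf1, Col8a2, Fbxo32, Sfrp1 and Afap1l2. Igf1, insulin-like growth factor 1, read 5.93, 5.89, 6.67 and 6.59 in the mutant and 5.36, 4.98, 4.35 and 4.16 in the wild type. Its difference was 1.55 (SE 0.28, adjusted p = 0.0124), and without wild type replicate 3 the adjusted p was 0.0537. Col8a2, a short chain collagen, and Sfrp1, a secreted Wnt antagonist, rose by 1.39 and 1.23. Fbxo32, the muscle atrophy ubiquitin ligase atrogin-1, read 7.78, 8.12, 8.02 and 7.92 in the mutant and 6.61, 6.54, 6.70 and 6.53 in the wild type. Its 2 array A probe sets gave 1.32 and 1.55, and all 3 were called. Afap1l2, an actin filament associated adaptor, rose by 1.19 (adjusted p = 0.0259), but the call was lost on leaving out any 1 irradiated array other than mutant replicate 2 (adjusted p up to 0.0956).

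Probe sets of the same gene did not always move alike. Of the 36 gene entries above that were chosen for size, 26 had another probe set on the arrays, and for 16 of these no other probe set moved at least 50% as far. Prdx2, a peroxiredoxin that reduces hydrogen peroxide, was one of them. One Prdx2 probe set read 7.51, 7.70, 8.06 and 8.09 in the mutant and 3.66, 3.93, 4.30 and 4.67 in the wild type, a difference of 3.70 (SE 0.10, adjusted p = 2.85e-14). The other Prdx2 probe set, which averaged 12.14 in the wild type, differed by 0.067 (adjusted p = 0.524). Pclaf behaved likewise, with -0.18 on its second array A probe set and 0.058 on array B, as did Ctse (0.12), Limd1 (-0.13) and Ywhaz (-0.14 to 0.12 over 6 other probe sets). For Prelp, Lgr5, Dcn, Lipg and Thg1l, also among the 16, every other probe set had a mean under the filter level and was not tested. The other Trim16 probe set was also called higher, by 0.39 (adjusted p = 0.0091). Igfbp3, Rgs4, Gas5, Supt16, Map2, Igf1, Fbxo32, Sfrp1 and Khsrp had another probe set that moved at least 50% as far.

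Of the gene lists, the extracellular matrix genes had the most rises. Of 48 matrix genes measured on array A, 28 rose, 2 fell and 18 were not called, with a median difference of 0.29. Over all 7581 autosomal genes measured there, each by its brightest probe set, 7.65% rose, 3.81% fell and the median was 0.0081. Within the number runs the matrix medians were 0.25 and 0.36. The small leucine-rich proteoglycans, which bind collagen fibrils, had the largest rises. Prelp read 7.21, 7.49, 7.91 and 7.62 in the mutant and 4.92, 5.84, 5.82 and 5.71 in the wild type, a difference of 1.99 (SE 0.18, adjusted p = 5.85e-07). Decorin, encoded by Dcn, read 7.41, 7.48, 8.77 and 8.39 in the mutant and 5.85, 6.06, 6.48 and 6.57 in the wild type, a difference of 1.77 (SE 0.15, adjusted p = 5.1e-07). Both groups of Dcn values were higher in the second run and did not overlap. Lumican, encoded by Lum, read 8.48, 8.44, 7.90 and 7.67 in the mutant and 7.31, 7.49, 5.96 and 5.52 in the wild type. Its difference was 1.55 (SE 0.20, adjusted p = 3.99e-05), and its call was lost without the run block (adjusted p = 0.0605). Fibromodulin, encoded by Fmod, rose by 1.15 (SE 0.12). Osteoglycin, encoded by Ogn, fell by 0.30 (adjusted p = 0.0494), and that call was lost in 6 of 8 fits that left out 1 irradiated array, all but those without mutant replicate 3 and wild type replicate 4 (adjusted p up to 0.164).

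Among the other matrix genes, Timp3, an inhibitor of metalloproteinases that stays bound to matrix, read 11.64, 11.55, 11.93 and 11.96 in the mutant and 10.44, 10.42, 10.43 and 10.44 in the wild type. The wild type extracts agreed within 0.03, and the difference was 1.34 (SE 0.12, adjusted p = 9.79e-07). Lama4, a laminin chain of vascular and muscle basement membranes, read 9.53, 9.65, 10.01 and 9.73 in the mutant and 8.70, 8.67, 8.51 and 8.54 in the wild type, a difference of 1.12 (SE 0.12, adjusted p = 6.21e-06). Vcan, the proteoglycan versican, rose by 0.60, Mmp2, gelatinase A, by 0.74, and Fbn2, fibrillin 2, by 0.82. Of the collagens, the basement membrane chains Col4a1 and Col4a2 rose by 0.39 and 0.37, Col8a1 by 0.55 and Col15a1 by 0.62, while Col18a1 fell by 0.60. Without the run block Col4a1, Col4a2 and Col8a1 were not called. The fibrillar chain Col3a1 rose by 0.30 (adjusted p = 0.0214) on its brightest probe set and by 0.68 (adjusted p = 0.000251) on another. The fibrillar chains Col1a1 and Col1a2 gave 0.25 (adjusted p = 0.0636) and 0.19 (adjusted p = 0.0759). Col6a1, Col6a2 and Col6a3 rose by 0.27, 0.41 and 0.27. On these brightest probe sets Col3a1 and the Col6 chains were not called without the block. Leaving out 1 irradiated array ended the Col3a1 call in 4 of 8 fits and those of Col6a1 and Col6a3 in 6. Fibronectin, encoded by Fn1, gave 0.19 (adjusted p = 0.106). On array B none of 13 matrix genes was called, with a median of 0.17 against 0.022 over all 6463 autosomal genes measured there, of which 2.21% were called. Without the run block 13 matrix genes on array A were higher and 1 lower. Of 18 fibroblast markers on array A, 10 rose (55.6%, against 7.65% of all autosomal genes) and none fell. Of these markers 8, among them Dcn, Lum, Postn and Col3a1, are also on the matrix list. The number called was 1 without the block and 6 without mutant replicate 3.

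**Figure D2:**
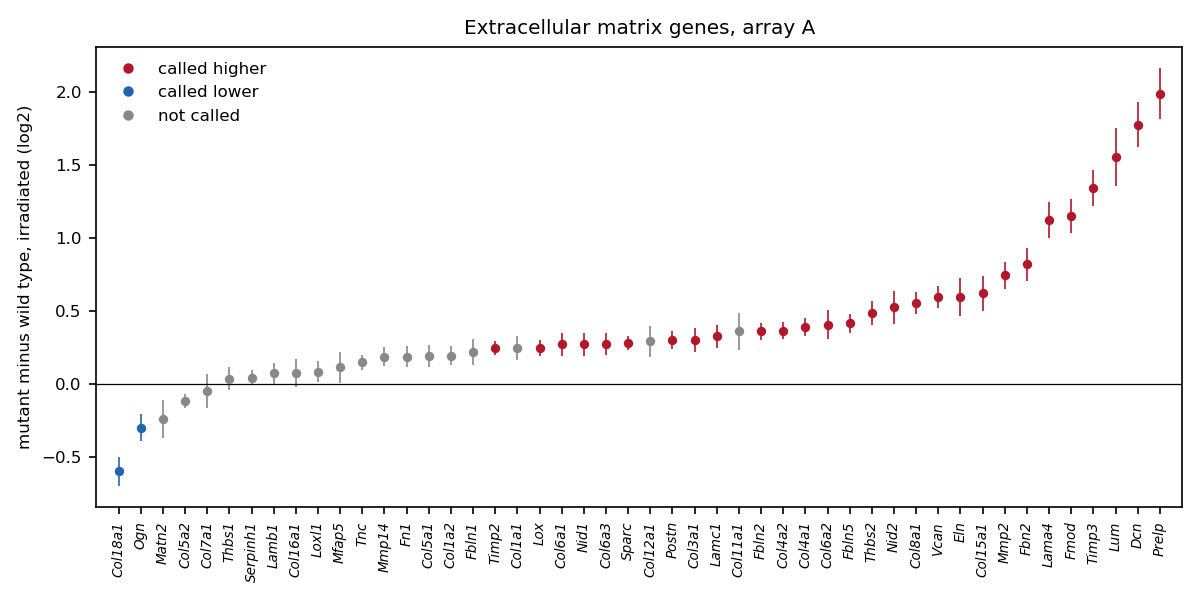
Mutant minus wild type difference in irradiated cells (y axis, log2) of the 48 extracellular matrix genes measured on array A, ordered by size, with bars of 1 standard error from the fit on 16 arrays, red for called higher, blue for called lower and grey for not called. Prelp, Dcn, Lum, Timp3, Fmod and Lama4 lie above 1, and Col18a1 and Ogn are the 2 genes called lower.

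Growth factor binding proteins rose. Of 24 growth factor and receptor genes measured on array A, 8 rose (33.3%, against 7.65% of all autosomal genes) and none fell. Without the run block 4 rose. The insulin-like growth factor binding proteins, which hold the growth factors outside the cell, made up 5 of the 8. Beside Igfbp3, Igfbp5 read 7.80, 7.88, 7.77 and 7.72 in the mutant and 6.48, 6.69, 6.87 and 7.09 in the wild type, a difference of 1.01 (SE 0.12, adjusted p = 1.31e-05). Igfbp6 rose by 0.49 (adjusted p = 5.11e-05), Igfbp2 by 0.79 (adjusted p = 0.00698) and Igfbp7 by 0.46 (adjusted p = 0.00218). Igfbp2 and Igfbp7 overlapped between groups across runs and were not called without the block. Igfbp4 gave 0.10 (adjusted p = 0.576). Igf1 rose by 0.76 on its brightest array A probe set. Igf2 gave 0.27 (adjusted p = 0.0544), and the receptors Igf1r and Igf2r gave 0.051 and 0.068 with adjusted p of 0.801 and 0.701.

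Interferon response genes rose without any called fall. Of 23 measured on array A, 12 rose (52.2%, against 7.65% of all autosomal genes), with a median of 0.27. None of 4 was called on array B. Without the run block 5 rose, and without wild type replicate 4 the number was 7. After Ifi202b, Lgals3bp, a secreted galectin ligand, read 6.78, 7.21, 6.82 and 7.01 in the mutant and 6.12, 5.78, 5.78 and 5.88 in the wild type, a difference of 1.06 (SE 0.14, adjusted p = 4.36e-05). The membrane restriction factors Ifitm1 and Ifitm3 rose by 0.83 and 0.43. For Ifitm3 the mutant extracts read 12.70, 12.73, 12.88 and 12.95 and the wild type extracts 12.35, 12.38, 12.44 and 12.35, with no overlap. Gbp2, a guanylate binding protein, and Tapbp, which loads peptides on class I molecules, rose by 0.74 and 0.44, and neither was called without the block. The antiviral genes Ifit2, Oas2 and Cxcl10 gave -0.33, -0.21 and -0.16, and none of these was called. The macrophage and blood markers, whose summed level was higher in every mutant than in every wild type extract, had no called member among the 6 measured, and their part in the result was not tested.

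Of 17 cytokines and inflammatory mediators measured on array A, 6 rose and 1 fell (41.2% called, against 11.5% of all autosomal genes). Without the run block 3 rose. Cxcl14, a chemokine of epithelium and fibroblasts, read 9.29, 9.25, 9.50 and 9.47 in the mutant and 7.71, 7.75, 7.85 and 7.50 in the wild type. The groups were far apart, with a difference of 1.68 (SE 0.10, adjusted p = 2.39e-09), 3.20-fold. The monocyte attractants Ccl7 and Ccl2 rose by 0.69 and 0.49, and the interleukin 1 receptor Il1r1 by 0.53, the latter not called without the block (adjusted p = 0.337). Cxcl5, a neutrophil attractant, read 8.95, 8.84, 8.51 and 8.23 in the mutant and 9.67, 9.77, 9.04 and 9.12 in the wild type, a difference of -0.77 (SE 0.092, adjusted p = 2.12e-05), and was not called without the block (adjusted p = 0.113).

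Several antioxidant and glutathione genes rose. Of 41 on array A, 15 rose and 1 fell (39.0% called, against 11.5% of all autosomal genes), with a median of 0.14. Without the run block 11 rose. Gpx3, a secreted glutathione peroxidase, read 8.85, 9.05, 9.06 and 8.96 in the mutant and 7.52, 7.45, 7.61 and 7.36 in the wild type, a difference of 1.499 (SE 0.11, adjusted p = 3.3e-08), 2.83-fold. Mgst1, a membrane glutathione transferase, read 11.13, 11.22, 10.85 and 10.77 in the mutant and 10.05, 10.26, 9.66 and 9.77 in the wild type, a difference of 1.06 (SE 0.072, adjusted p = 2.42e-08). In both genes every mutant extract was above every wild type extract. The transferases Gstm2, Gstm1 and Gstm5 rose by 0.79, 0.48 and 0.28. Near-identical members of this family may share probes. Txnip, an inhibitor of thioredoxin, rose by 0.74, Blvrb, biliverdin reductase B, by 0.60, and Gpx7 by 0.47. Nqo1, a classic target of the oxidant sensor NRF2, rose by 0.40 (adjusted p = 0.00194). Gsr, glutathione reductase, fell by 0.39 (adjusted p = 0.00853), and neither Nqo1 nor Gsr was called without the block. The core enzymes Sod1, Sod2, Cat and Gpx1 gave 0.037, 0.11, -0.072 and 0.14, and Hmox1 gave 0.24, none of them called. Nfe2l2, which encodes NRF2, gave 0.22 (adjusted p = 0.13).

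Several genes of mitosis fell. Of 46 G2/M and mitosis genes measured on array A, 10 fell (21.7%, against 3.81% of all autosomal genes) and none rose, with a median of -0.15. Without the run block 3 fell. Pttg1, securin, which holds back separase until anaphase, read 10.59, 10.62, 10.54 and 10.46 in the mutant and 11.27, 11.17, 10.95 and 10.91 in the wild type, a difference of -0.52 (SE 0.052, adjusted p = 2.34e-06). Nuf2, a kinetochore subunit, read 7.67, 8.31, 7.62 and 7.45 in the mutant and 8.48, 9.11, 8.63 and 8.41 in the wild type, a difference of -0.89 (SE 0.14, adjusted p = 0.000291). Kif23, a kinesin of the midbody, read 8.01, 7.92, 7.69 and 8.04 in the mutant and 8.37, 8.59, 8.73 and 8.46 in the wild type, a difference of -0.63 (SE 0.10, adjusted p = 0.000467). These 3 genes kept the groups apart over all 8 extracts. Ccna2, cyclin A2, Foxm1, the transcription factor of mitotic genes, and Smc2, a condensin subunit, fell by 0.35, 0.59 and 0.33. Each of the latter overlapped between groups across runs, and none was called without the block. Foxm1 had 2 other tested probe sets, with differences of -0.047 and -0.011. The central mitotic genes Cdk1, Ccnb2, Birc5 and Aurka gave -0.033, -0.054, -0.062 and -0.13, with none called. On array B none of 17 was called.

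**Figure D3:**
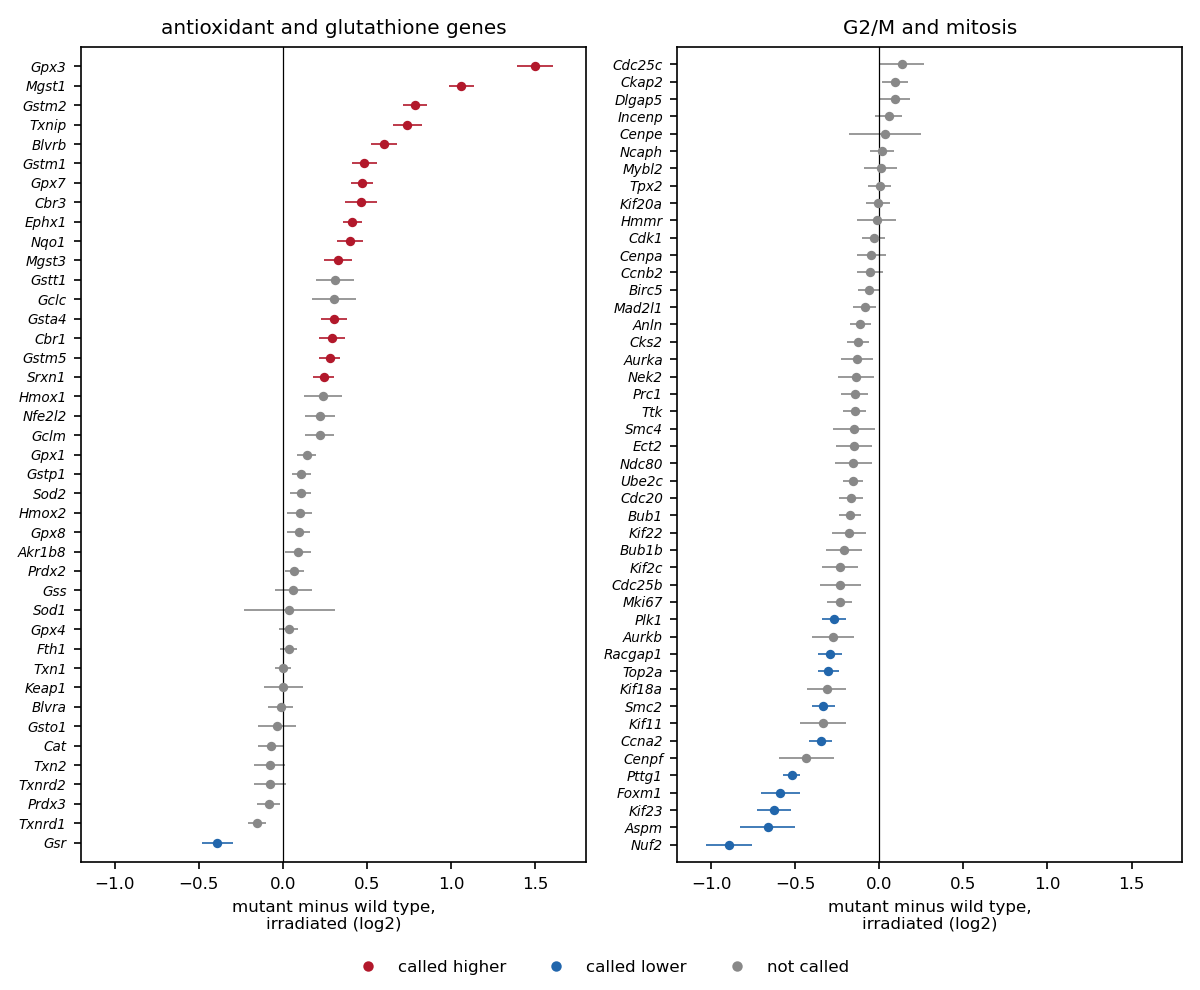
Mutant minus wild type difference in irradiated cells (x axis, log2) of the antioxidant and glutathione genes (left, 41) and of the G2/M and mitosis genes (right, 46) measured on array A, with bars of 1 standard error, red for called higher, blue for called lower and grey for not called. The left panel has 15 genes called higher and Gsr lower, and the right panel has 10 called lower, from Plk1 at -0.27 to Nuf2 at -0.89.

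Of 40 DNA replication genes on array A, 4 fell and none rose, with a median of -0.089, and none was called without the run block. Mcm2, of the replicative helicase, fell by 0.31 (adjusted p = 0.00203) and Cdc6, an origin licensing factor, by 0.50 (adjusted p = 0.00851). Of 22 genes of the Rb family, E2F factors and G1 cyclins, 2 rose and 2 fell (18.2% called, against 11.5%), with a median of -0.035. Without the block 1 rose. Cdkn1c, the imprinted CDK inhibitor p57, read 7.47, 7.61, 7.73 and 7.85 in the mutant and 6.90, 6.77, 7.16 and 7.28 in the wild type, a difference of 0.64 (SE 0.083, adjusted p = 4.57e-05). Cdkn2b, the CDK4 and CDK6 inhibitor p15, rose by 0.46, and Ccne2, cyclin E2, fell by 0.61, neither called without the block. Of 4 histone list genes on array A, H1f2, a linker histone, rose by 0.81 (adjusted p = 1.01e-05) and was not called without the block (adjusted p = 0.113).

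Of 41 classical p53 targets measured on array A, 6 rose (14.6%, against 7.65% of all autosomal genes) and none fell, with a median of 0.0775. Without the run block 4 rose. Beside Ptprv these were Ephx1 (0.41), the xylulose reductase gene Dcxr (0.43), the autophagy regulator Dram1 (0.50), the spindle gene Psrc1 (0.31) and Tap1 (0.62). Ephx1, an epoxide hydrolase, is also on the antioxidant list, and Tap1, the peptide transporter, is also on the interferon list. Psrc1 lost its call without mutant replicate 2 and without wild type replicates 3 and 4 (adjusted p up to 0.0815), and Tap1 lost it in 6 of 8 fits that left out 1 irradiated array, all but those without mutant replicate 4 and wild type replicate 1 (adjusted p up to 0.114). The arrest gene Cdkn1a read 12.43, 12.74, 12.63 and 12.55 in the mutant and 12.49, 12.38, 12.42 and 12.44 in the wild type, a difference of 0.15 (SE 0.12, adjusted p = 0.49) with a 95% interval of -0.10 to 0.40. Mdm2, the p53 ubiquitin ligase, gave -0.10 with an interval of -0.39 to 0.19. The death genes Bbc3 and Pmaip1 gave -0.24 (adjusted p = 0.117) and 0.46 (adjusted p = 0.158). Of 36 DNA damage signalling and repair genes, 2 fell (5.56%, against 3.81% of all autosomal genes) and none rose. They were the Atm probe set described above and Mre11a, a nuclease of break repair (-0.30). The Mre11a call was lost without mutant replicate 1 or 4 and without wild type replicate 2, 3 or 4 (adjusted p up to 0.0922). Of 28 apoptosis regulators 3 rose (10.7%, against 7.65% of all autosomal genes), and 1 rose without the run block. Bcl2l11, which encodes the BH3-only protein Bim, led with 0.48 (adjusted p = 0.013). Its other tested probe sets gave 0.096, 0.37 and 0.37 and were not called.

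Patterning genes moved in both directions. Of 33 Hox and positional genes on array A, 10 rose and 3 fell (39.4% called, against 11.5% of all autosomal genes). Without the run block 4 rose and 2 fell, and without wild type replicate 2 there were 6 rises. Hoxc8 read 10.05, 9.90, 9.84 and 9.82 in the mutant and 9.24, 9.18, 9.16 and 9.24 in the wild type, a difference of 0.70 (SE 0.076, adjusted p = 6e-06). Hoxd8 and the Hox cofactor Meis1 rose by 0.69 and 0.62. The 5' cluster genes Hoxa10 and Hoxd13, which pattern limb and urogenital tissue, fell by 0.86 each, Hoxd13 without a call when the block was left out (adjusted p = 0.151). Hoxa10 read 5.50, 5.20, 5.24 and 4.99 in the mutant and 6.16, 6.15, 5.76 and 6.30 in the wild type, and a Hoxd13 probe set on array B also fell, by 0.76 (adjusted p = 0.255 without the block). Hoxa9 fell by 0.59 (adjusted p = 0.00625). Of 21 such genes on array B, 1 rose and 2 fell (14.3% called, against 2.21% of all autosomal genes there).

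Of 26 Wnt and Notch genes on array A, 7 rose and 2 fell (34.6% called, against 11.5% of all autosomal genes). Without the run block 4 rose and 1 fell. Lgr5, a receptor for R-spondins, read 7.80, 7.81, 7.63 and 8.10 in the mutant and 5.60, 6.44, 5.81 and 5.57 in the wild type, a difference of 1.98 (SE 0.16, adjusted p = 1.21e-07). Wnt4 read 6.89, 7.34, 6.56 and 6.59 in the mutant and 5.35, 5.69, 5.39 and 5.48 in the wild type, a difference of 1.37 (SE 0.14, adjusted p = 3.2e-06). Sfrp1 rose by 1.01 on its brightest array A probe set, and the ligand gene Rspo2 fell by 0.80. Rspo2 read 6.41, 6.72, 6.62 and 6.69 in the mutant and 7.36, 7.39, 7.38 and 7.50 in the wild type, with no overlap. The Notch ligand Jag1 rose by 0.37 and was not called without the block. Of 38 TGF-beta and contractile genes, 9 rose and 2 fell (28.95% called, against 11.5%), with 3 rises without the block. The receptors Tgfbr1 and Tgfbr2 rose by 0.38 and 0.40, and Actg2, a smooth muscle actin, by 0.78, while Ltbp1, which stores latent TGF-beta in matrix, fell by 0.56. Tgfbr1, Actg2 and Ltbp1 were not called without the block.

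Of 18 imprinted genes on array A, 7 rose (38.9%, against 7.65% of all autosomal genes) and none fell, with a median of 0.21. Dlk1, a paternally expressed inhibitor of adipocyte differentiation, read 11.92, 12.27, 12.22 and 12.15 in the mutant and 10.98, 10.88, 10.88 and 11.02 in the wild type, a difference of 1.20 (SE 0.087, adjusted p = 4.7e-08). Peg3 read 10.79, 10.68, 10.68 and 10.59 in the mutant and 10.005, 10.10, 9.99 and 10.12 in the wild type, a difference of 0.63 (SE 0.06, adjusted p = 1.28e-06). The groups were apart in both genes, and Dlk1, Peg3, Dcn and Cdkn1c were among the 5 imprinted genes that rose without the run block. The signalling adaptor gene Grb10 rose by 0.24 and Sgce by 0.31, Sgce only with the block, whereas Mest, Meg3 and Igf2r gave -0.18, 0.27 and 0.068 and were not called. Of 22 immediate early genes 5 rose (22.7%, against 7.65%) and none fell, and 2 rose without the block. Fos read 9.09, 8.92, 8.49 and 8.42 in the mutant and 8.31, 8.50, 7.58 and 7.55 in the wild type, with both genotypes higher in the first run, and rose by 0.74. Klf4, Klf2, Nr4a1 and Ier2 rose by 0.63, 0.63, 0.44 and 0.39, while Jun, Junb and Myc gave -0.036, 0.043 and 0.11 and were not called. Fos, Klf2 and Ier2 were not called without the block.

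Markers of other cell types were mostly under the filter level or not called. The summed level of 11 cartilage and bone markers on array A, of which Col2a1 was the brightest, was 446.1 to 518.6 in wild type and 294.1 to 355.3 in mutant extracts, with 3 of 11 markers above the filter level. The part of such cells in the results was not tested. Map2, a neuronal microtubule protein, fell on array B by 0.81 (SE 0.12, adjusted p = 0.00366), with mutant values of 8.16, 8.31, 7.88 and 7.90 and wild type values of 9.24, 9.20, 8.44 and 8.59. The summed level of the 5 neural and glial markers on array B, of which Map2 was the brightest, was 455.3 to 671.7 in wild type and 303.6 to 394.5 in mutant extracts. On array A, with 16 such markers, the sums overlapped, at 2125 to 2467 and 1894 to 2438. The array A probe set of Map2 fell by 1.22, but its call was lost without mutant replicate 2 and without wild type replicate 1 or 2 (adjusted p up to 0.0651). Stmn2, a neuronal microtubule regulator, fell by 0.47 (adjusted p = 0.00181). Neither Map2 nor Stmn2 was called without the run block. Of the adipocyte, endothelial and pericyte, epithelial and skeletal muscle markers, 14 were measured on array A, and the calls were falls of Fabp4 and of Mcam (-0.42, adjusted p = 0.0389), the latter lost without the block, without mutant replicate 3 or 4 and without wild type replicate 1 or 4 (adjusted p up to 0.141 with 1 replicate left out). In bulk extracts fewer cells of a type and less RNA per cell cannot be told apart.

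Of 31 cholesterol and fatty acid genes on array A, 7 rose and 2 fell (29.0% called, against 11.5% of all autosomal genes). Without the run block 3 rose and 1 fell. Cyp51, a demethylase of cholesterol synthesis, rose by 0.46 (adjusted p = 0.000115), Dhcr7, Fdft1 and Sqle of the same pathway rose by 0.54, 0.33 and 0.27, and the fatty acid carrier Fabp4 fell by 0.55. Dhcr7 was not called without the block (adjusted p = 0.0958). Of 16 methionine cycle and one-carbon genes Ahcy alone was called (6.25%, against 11.5%), and the related Ahcyl1 and Ahcyl2 gave 0.089 and -0.065. Of 50 oxidative phosphorylation and TCA cycle genes 2 fell (4.0%, against 3.81% of all autosomal genes). Of these Idh3a, an isocitrate dehydrogenase subunit, fell by 0.29. Its other tested probe sets gave -0.067 and 0.16 and were not called. Of 20 glycolysis and lactate genes 2 rose and 1 fell, where 7.65% of all autosomal genes rose and 3.81% fell. One of the rises was that of Ldhb, lactate dehydrogenase B, by 0.46. Another Ldhb probe set was also called, at 0.38 (adjusted p = 0.0195). The remaining Ldhb probe sets gave 0.28 (adjusted p = 0.152) and 0.26 (adjusted p = 0.133) and were not called. Of 30 unfolded protein and amino acid stress genes 2 rose (6.67%, against 7.65% of all autosomal genes). Of 17 heat shock genes 2 rose and 1 fell (17.65% called, against 11.5%). Without the run block 1 glycolysis and lactate gene and 1 heat shock gene rose, and no unfolded protein gene was called. The lens and muscle chaperone Cryab rose by 0.44 and was not called without the block, and Hspa1b rose by 0.39.

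**Figure D4:**
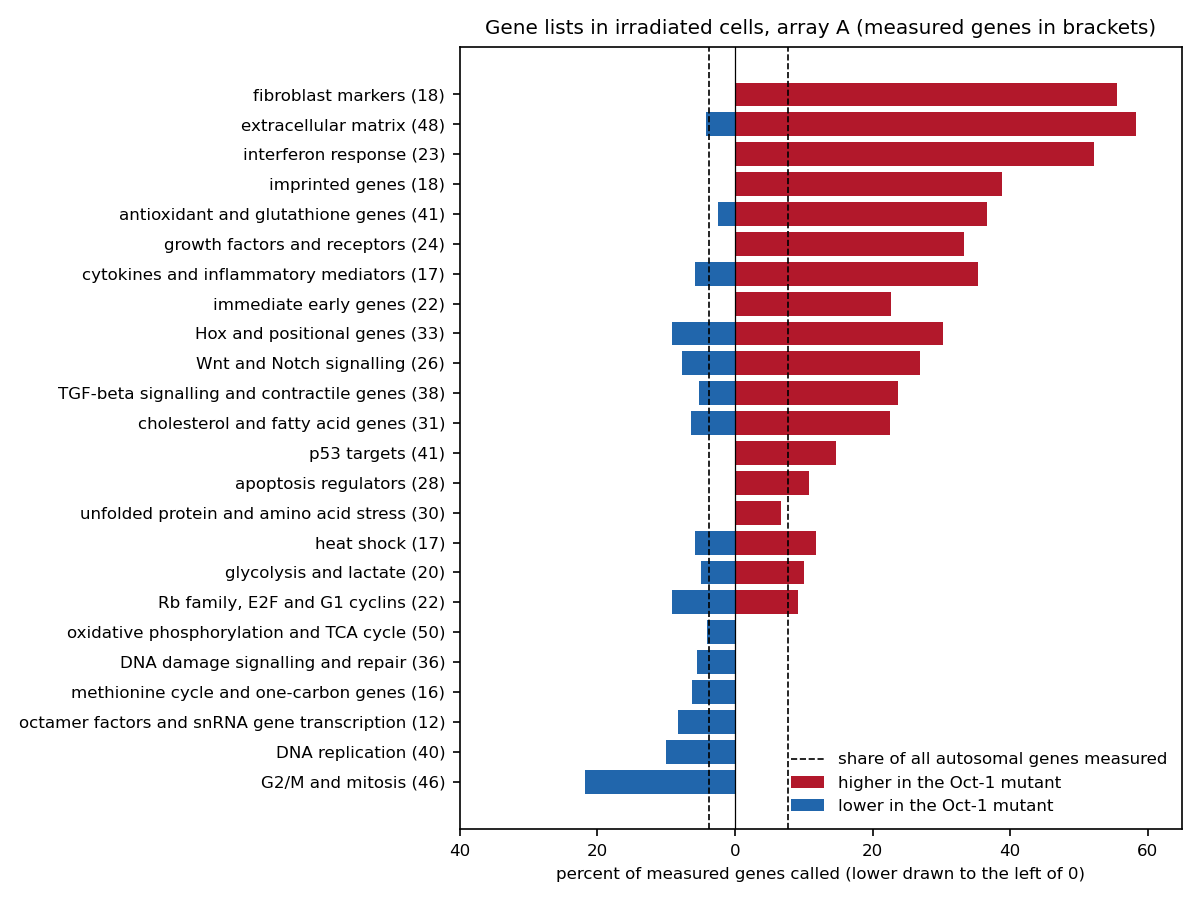
Percent of measured genes called higher (red, to the right) or lower (blue, to the left) in irradiated Oct-1 mutant cells for each gene list with at least 10 genes measured on array A, with the number measured in brackets and dashed lines at the shares over all autosomal genes measured, 7.65% higher and 3.81% lower. Matrix, fibroblast and interferon lists have over 50% of genes called higher, and the G2/M and mitosis list has 21.7% called lower.

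The octamer factor and snRNA list bears on Oct-1's own machinery. Of 12 of its genes measured on array A 1 was called (8.33%, against 11.5% of all autosomal genes), and of 9 on array B none. Snapc3, a subunit of the SNAP complex that Oct-1 helps bring to snRNA promoters, read 7.98, 7.75, 8.04 and 7.94 in the mutant and 8.77, 8.72, 9.12 and 8.88 in the wild type. The groups were apart, with a difference of -0.94 (SE 0.088, adjusted p = 1.04e-06). A second array A probe set of Snapc3 fell by 0.90 (adjusted p = 2.59e-05), while its array B probe set gave 0.13 (adjusted p = 0.784), and Snapc2 on array A and Snapc1 and Snapc4 on array B gave -0.027, -0.049 and -0.11. Npat, the histone gene activator, gave -0.10 (adjusted p = 0.674).

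Genes near Pou2f1 on chromosome 1 were also counted, by their order among annotated genes in RefSeq's GRCm38.p6 table, since the labels give no strain or allele. Within 100 annotated genes on either side, 10 of 51 tested probe sets on array A were called (19.6%), from 6 of 30 genes. From over 100 to 600 genes away 42 of 269 were called (15.6%), farther along the chromosome 39 of 414 (9.42%), and on other autosomes 1145 of 11382 (10.1%). On array B the numbers were 2 of 49, 10 of 195, 10 of 375 and 160 of 8522. These shares are counts of probe sets, several of which share a gene, and carry no test. Rgs4, an inhibitor of G protein signalling that lies 53 genes from Pou2f1, read 8.87, 8.90, 8.95 and 8.65 in the mutant and 6.80, 7.19, 7.21 and 7.21 in the wild type, a difference of 1.74 (SE 0.12, adjusted p = 4.02e-08). A second Rgs4 probe set rose by 1.10 (adjusted p = 6.49e-05). Ildr2, 8 genes away, read 5.52, 6.23, 6.39 and 6.25 in the mutant and 5.02, 5.12, 5.05 and 5.16 in the wild type, a difference of 1.01 (SE 0.15, adjusted p = 0.00317). Nuf2 at 49 genes and Uhmk1, a splicing related kinase, at 61 genes fell by 0.89 and 0.48. Of the other genes chosen for size, Gas5, Ifi202b, Shisa4, Ptprv, Prelp, Ctse and Map2 also lay on this chromosome. They were 121, 231, 452, 464, 505, 577 and 1447 genes from Pou2f1. On array A called differences over 2-fold made up 3.92% of tested probe sets within 100 genes and 2.60% from over 100 to 600 genes. Farther along the chromosome the share was 0.48%, and on other autosomes 0.62%. On array B the shares were 2.04%, 0.51%, 0.27% and 0.27%. They carry no test either.

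Of the other called genes within 100 genes of Pou2f1, each had at least 1 probe set whose call was lost on leaving out a single extract. Creg1, a secreted glycoprotein 4 genes away, rose by 0.45 and 0.27 on its 2 probe sets. The first lost its call without mutant replicate 2 and without wild type replicates 1 and 4 (adjusted p up to 0.0654), and the second without mutant replicates 2 and 4 and without wild type replicates 1, 2 and 3 (up to 0.116). Atp1b1, the sodium pump beta subunit at 36 genes, fell on 3 probe sets by 0.39, 0.31 and 0.25. The smaller 2 lost their calls without mutant replicate 3 or 4 and without wild type replicate 3 or 4, and the smallest also without wild type replicate 1 (adjusted p up to 0.141). Mgst3, a microsomal glutathione transferase at 33 genes, rose by 0.33 and was not called without wild type replicate 2 (adjusted p = 0.0561). Suco, at 95 genes, fell by 0.51 and lost its call in 7 of 8 such fits (adjusted p up to 0.0982), all but that without wild type replicate 2.

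Octamer matches near gene starts were counted because Oct-1 binds that motif. The motif ATGCAAAT, read as ATTTGCAT on the opposite strand, was searched in RefSeq windows of 250 bases before to 50 bases after each gene's start, on build GRCm38.p6. Of 27025 genes with a window 532 held a match (1.97%). Windows were found for 6205 tested autosomal genes on array A, of which 89 held a match (1.43%). Among called genes 10 of 529 that rose (1.89%) and 4 of 315 that fell (1.27%) held one, so the shares lay near that of all tested genes. On array B none of 54 that rose and 1 of 82 that fell held one, against 74 of 5166 tested (1.43%). A match is a description of the letters and not a binding site. The windows of Rgs4 (chr1:169747593-169747892, minus strand), of Plppr2 (chr9:21936760-21937059, plus strand) and of H3f3b (chr11:116024455-116024754, minus strand) are shown because they hold the motif at a strongly risen gene, in 4 copies, and at a histone gene that fell. Each is written 5' to 3' along its gene, with the octamer in capitals.
Rgs4: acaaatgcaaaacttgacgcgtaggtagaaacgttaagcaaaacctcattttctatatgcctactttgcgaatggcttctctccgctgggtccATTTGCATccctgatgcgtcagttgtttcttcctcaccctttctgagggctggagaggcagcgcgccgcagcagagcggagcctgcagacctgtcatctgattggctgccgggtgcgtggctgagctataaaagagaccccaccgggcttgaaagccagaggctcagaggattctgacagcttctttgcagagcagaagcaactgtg
Plppr2: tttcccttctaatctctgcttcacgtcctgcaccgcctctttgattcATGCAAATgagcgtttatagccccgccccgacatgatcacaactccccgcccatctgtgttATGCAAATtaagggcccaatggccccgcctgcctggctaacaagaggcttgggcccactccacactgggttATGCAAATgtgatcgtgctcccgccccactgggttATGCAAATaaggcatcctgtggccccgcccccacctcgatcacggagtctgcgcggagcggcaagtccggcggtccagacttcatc
H3f3b: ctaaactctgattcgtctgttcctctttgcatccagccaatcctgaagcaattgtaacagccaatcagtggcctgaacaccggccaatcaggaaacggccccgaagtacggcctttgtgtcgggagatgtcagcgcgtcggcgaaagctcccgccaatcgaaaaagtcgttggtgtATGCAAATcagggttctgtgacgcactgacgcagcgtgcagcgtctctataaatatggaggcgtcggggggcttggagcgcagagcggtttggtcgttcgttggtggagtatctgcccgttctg
The first match begins 157 bases before the start of Rgs4, 203 bases before that of Plppr2 and 74 bases before that of H3f3b. Plppr2, of the phospholipid phosphatase related family, was singled out after its values were seen: it rose by 0.74 (adjusted p = 1.52e-05). H3f3b, a replacement histone H3.3 gene, read 7.63, 7.51, 8.65 and 8.76 in the mutant and 8.16, 8.41, 9.16 and 8.96 in the wild type on array B. It differed by -0.53 (SE 0.12, adjusted p = 0.0421), overlapped between groups across runs, and lost its call under the replicate block, without the run block and in 7 of 8 fits that left out 1 irradiated array, all but that without mutant replicate 4 (adjusted p up to 0.748 over all settings).

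The same genotype contrast in unirradiated cells used other extracts and gave 1471 calls on array A (10.8%) and 211 on array B (1.56%). Of the 1405 probe sets called in irradiated cells on array A, 896 were also called in unirradiated cells, which is 63.8% of the irradiated and 60.9% of the unirradiated calls, and all 896 had the same sign. On array B 115 were called in both, which is 53.2% and 54.5%, also with the same sign. Among all tested probe sets 73.8% on array A and 70.7% on array B had the same sign in the 2 comparisons. Of the 3 largest rises and 3 largest falls on array A, the irradiated and unirradiated differences were 4.61 and 4.91 for Ifi202b, 3.70 and 3.36 for Prdx2, 3.33 and 2.08 for Ptprv, -4.34 and -3.70 for Pclaf, -2.70 and -2.74 for Ahcy, and -1.99 and -2.12 for Gas5. Trim16 gave 1.73 in irradiated and 0.96 in unirradiated cells. The mutant and wild type extracts of both comparisons share the sex-linked split and the number runs.

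**Figure D5:**
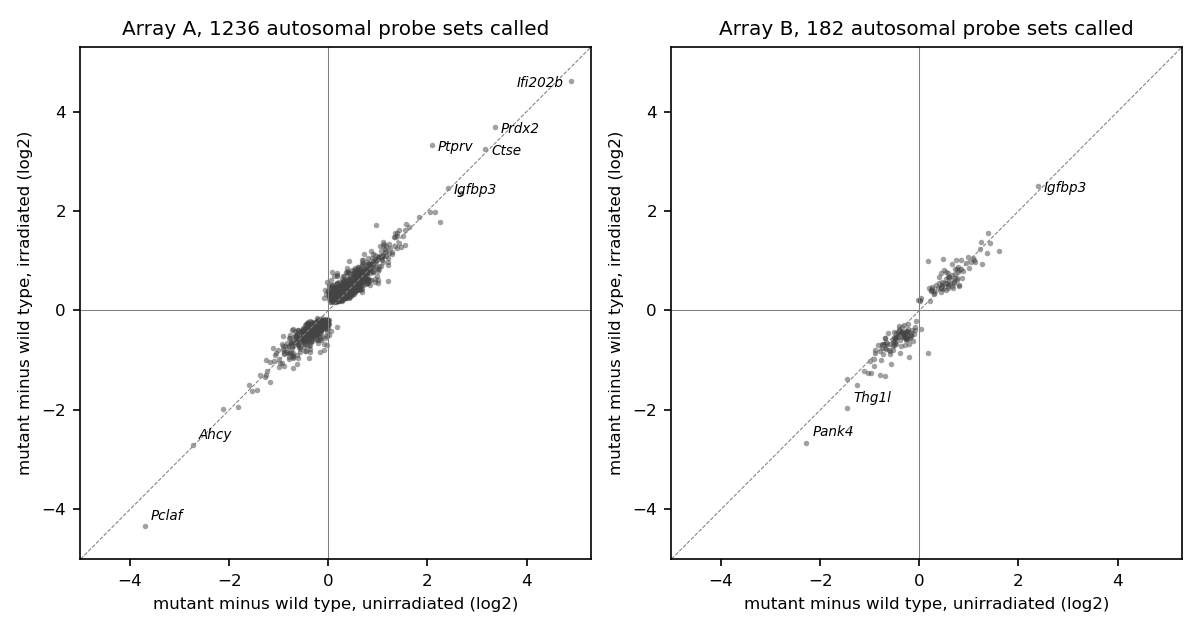
Mutant minus wild type difference in irradiated cells (y axis, log2) against the same difference in unirradiated cells (x axis, log2) for the autosomal probe sets called in irradiated cells, 1236 on array A (left) and 182 on array B (right), with the dashed line marking equal differences. Most points lie near the line, and Ptprv is above it with 3.33 in irradiated and 2.08 in unirradiated cells.

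No probe set was called for a difference between the genotype contrasts of irradiated and unirradiated cells. With limma's test of the interaction, 0 of 13576 on array A (0.0%) and 0 of 13507 on array B (0.0%) passed, and the smallest adjusted p were 0.657 and 0.758. At an unadjusted p under 0.05 there were 387 and 398 probe sets, 2.85% and 2.95% of those tested. The smallest p on array A was that of Ptprv, whose genotype difference was 1.24 larger in irradiated cells (unadjusted p = 4.84e-05). Klf4 followed on its dimmer probe set, with 0.59 in irradiated and 1.21 in unirradiated cells, and then Btbd3, with 0.42 and -0.50. On array B Ddx58, the RNA sensor RIG-I, gave 0.067 in irradiated and 0.58 in unirradiated cells (unadjusted p = 5.61e-05), followed by Myct1 (-0.091 and 0.17) and Cox10 (-0.86 and 0.17). Without wild type irradiated replicate 2, 1 probe set of Mapk8 on array B was called. That extract read 6.05 on it, and the other 3 irradiated wild type extracts 5.01 to 5.21. A p that misses the threshold does not show that the genotype differences were equal.

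Few autosomal genes called in irradiated cells had the opposite sign in unirradiated cells. On array A these were Zfp704, Adam15, Prpf39, Gna13, Carmil1, Plk1, Ndst2, Sugt1, Cog4, Cflar and Metap2, and on array B Cox10, Golga7b and Rubcn, named after their values were seen. On array A their differences in unirradiated cells were small, from -0.084 to 0.17, against -0.50 to 0.58 in irradiated cells. Plk1, the mitotic kinase, gave -0.27 in irradiated and 0.021 in unirradiated cells, and its irradiated call was lost without wild type replicate 3 or 4 (adjusted p up to 0.0567). Adam15, a membrane metalloproteinase, gave 0.58 and -0.032. None of these passed the adjusted test of the interaction. The call of Cox10 in irradiated cells was lost in 7 of 8 fits that left out 1 irradiated array, all but that without mutant replicate 4 (adjusted p up to 0.112).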

How the data were processed

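The 32 arrays came from 16 extracts of total RNA, each read on array A and array B. The authors deposited 1 value per probe set and array, and no source used here gives the summarisation, the normalization or the log base. The deposited values were taken as log2 because they run from 0.0973 to 15.8. The number of arrays limits the precision.

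Probe sets were named through the platform annotation, with symbols updated from RefSeq's GRCm38.p6 table. Of 22690 probe sets on array A, 20380 had 1 gene, 691 several and 1555 none, and of 22575 on array B, 14661, 245 and 7605. Controls and probe sets with a mean under the 40th percentile (4.97 on array A, 3.36 on array B) were left out. Each array type was fitted on its 16 arrays in limma 3.58.1 (R 4.3.3) with 4 group means, the title number run as a block and eBayes with an intensity trend. P-values were adjusted by Benjamini-Hochberg within array and contrast. The fit was tested on simulated data.

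Genes were named by rule: the 12 (A) or 6 (B) largest called autosomal rises and falls with genotypes apart in both runs, up to 6 called members per list by adjusted p, called genes within 100 genes of Pou2f1, the 3 smallest interaction p per array, and family members. The members and the 32 lists were chosen with earlier results of these data known. Lists used the brightest probe set of a gene. Other list members were named as examples after their values were seen.

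Same-numbered mutant and wild type extracts deviated together, with correlations of 0.32 to 0.64 (A) and 0.35 to 0.54 (B). Mutant and wild type extracts of the same run, whatever their number, gave 0.30 to 0.71 (A) and 0.29 to 0.54 (B). Those of different runs gave -0.68 to -0.29 (A) and -0.53 to -0.30 (B). The same-run values include the same-numbered ones. On array A the highest same-run value, 0.71, came from extracts of different numbers. On array B the highest value, 0.54, was that of a same-numbered pair. Same-run pairs of different numbers were not set apart, so pairing by replicate number beyond the run was not tested. Alternatives covered the block, the samples, the filter, the normalization, the variance model and each irradiated replicate left out.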

Additional observations from a re-analysis of the deposited data

Results flagged for a closer look

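Among the named probe sets, 308 groups of 4 irradiated extracts were looked at for a single extract far from the other 3, and 13 (4.22%) had one, where chance gives about 1 in 20. In the wild type, Prelp read 4.92 in replicate 1 against 5.71 to 5.84 in the others, Rgs4 6.8 in replicate 1 against 7.19 to 7.21, Gpx7 8.71 in replicate 1 against 8.92 to 8.94, and Hoxd8 7.56 in replicate 1 against 7.75 to 7.76. Dapk1, a death-associated kinase, read 8.44 in wild type replicate 2 against 8.0 to 8.01. In wild type replicate 3, Limd1 read 8.93 against 8.33 to 8.42 and Dram1 7.18 against 7.33 to 7.35. In wild type replicate 4, Col8a2 on array B read 6.28 against 5.58 to 5.64, Klf4 9.84 against 9.38 to 9.44, Idh3a 10.99 against 11.08 in the others, and Sdhd, a subunit of succinate dehydrogenase, 10.44 against 10.66 to 10.71. In the mutant, Ephx1 read 11.27 in replicate 1 against 11.49 to 11.51, and Nr4a1 9.44 in replicate 4 against 9.58 to 9.6. The calls of Dapk1 and Sdhd in the irradiated comparison were each lost in 5 of 8 fits that left out 1 irradiated array, with adjusted p up to 0.0795 and 0.106, and the calls of the other 11 held in all 8.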

How the results depend on the processing

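Without the number run block the irradiated calls numbered 516 on array A against 1405 with it and 49 on array B against 216, and the unirradiated calls 525 and 59. With the first run only there were 497 and 31 irradiated calls, and with the second only 587 and 14. These fits have fewer samples or leave the runs in the residual spread. Of 151 named probe sets that were called, 84 were called without the block, 80 with the first run only and 91 with the second. List members called in either direction numbered 184 in the full fit. Their number was 78 without the block, 85 with the first run only and 96 with the second. Members called in a fit of 1 run need not be among the 184. With no filter on mean level array B had 138 calls, with more probe sets tested. With 1 irradiated replicate left out, array A had 1074 to 1295 calls and array B 108 to 156, of which 1027 to 1162 and 102 to 129 were shared with the full fit. In those fits 131 to 137 named probe sets and 151 to 170 list members were called. For the interaction, array A had 0 calls and array B gave 0 to 1, the call being Mapk8 without wild type replicate 2, whose cause was not tested. With the replicate block in place of the run, there were 1418 and 213 irradiated calls, 1505 and 234 unirradiated ones, 145 named and 178 list members. The named calls lost under that block were those of 1 Atp1b1 probe set, Cflar, Mcam, H3f3b, Slc16a1 and St13. Under the other settings, array A had 1120 to 1434 calls, of which 1054 to 1397 were shared with the full fit, and array B had 186 to 253, of which 159 to 208 were shared. No named call reversed its direction under these settings. The arrays hold no detection calls, so values near the filter level are limited by an unknown background.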
